A study of Mus musculus with 74 samples.

Results

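The imprinted genes H19, Igf2, Igf2r, Dlk1, Meg3, Mest, Peg3, Plagl1, Cdkn1c and Grb10, which bear on growth, were followed through the mouse gut epithelium by RNA-seq. They were taken by name from the gene count table and are 10 of its 24015 gene symbols. The table covers 31 libraries in 15 groups. Wild-type (WT) CD1 embryos gave epithelium of forestomach, hindstomach and small intestine at embryonic day 12, 14 and 16 (E12, E14, E16) and small intestine at E18, with 2 libraries each; the E12 and E14 intestine is described as midgut. In the mouse stomach the forestomach is lined by squamous epithelium and the hindstomach carries the glands. Cdx2, a homeobox factor that sets intestinal identity, was the target of the knockout groups, which were Cdx2f/f mice of a B6;129 mixed background. They comprise E16 intestine with Shh-Cre, labelled deleted at E10 (3 libraries), E16 intestine with Villin-Cre and 5 mg tamoxifen by gavage, labelled deleted at E13 (2 libraries), and E18 intestine with the same Cre and gavage, labelled deleted at E15 (2 libraries). Adult ileum villi came from Cdx2f/f; Villin-Cre mice given 1 mg tamoxifen on 5 days and from Cdx2f/f mice given oil on 5 days (2 libraries each). Shh-Cre and Villin-Cre act in the gut epithelium, so other cells of the gut wall are taken to keep the gene, which was not tested. In the embryonic knockout comparisons strain and genotype cannot be told apart, because WT embryos were CD1. Tamoxifen is listed only for the groups labelled deleted at E13 and E15 and the adult knockout. There it cannot be told apart from genotype either, and in the adult the same holds for Cre.

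An imprinted gene is transcribed mainly from the copy inherited from 1 parent, and counts per gene do not show which copy was read. Many such genes are abundant in the fetus and placenta and are switched down together around birth in several organs. As a group they balance growth promotion against growth restraint: Igf2 is a paternally expressed growth factor, Igf2r the maternally expressed receptor that clears it to lysosomes, and H19 the maternally expressed long noncoding RNA that shares a control region with Igf2. Dlk1, a transmembrane protein related to Notch ligands, and Meg3, a long noncoding RNA, form a second such pair, here on chromosome 12. Cdkn1c encodes p57, an inhibitor of cyclin-dependent kinases, and Grb10 an adaptor that restrains insulin and insulin-like growth factor receptors. Peg3 and Plagl1 encode zinc-finger proteins, and Mest encodes a protein of the hydrolase fold. Mesenchyme of the fetus also expresses these genes, so marker genes of mesenchyme were read in the same libraries.

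Promoters are shown for 4 members, to set the 2 whose windows hold a cAMP response element beside Dlk1, which lies near Meg3 on chromosome 12, and Igf2r, the member that was not called lower at E18. The RefSeq table (build GRCm38.p6, not the mm9 build named for the counts) had entries for 8 of the 10 members, in 15 windows of 280 bases, each from 250 bases before a transcript start to 30 bases after it. Capitals mark matches, on either strand, to the cAMP response element TGACGTCA, the TATA box TATAAA, the hexamer TGCCGC of the imprint-protecting factor ZFP57, and the palindrome GGGGCCCC of PLAGL1; overlapping matches are merged.
Meg3 promoter, chr12:109540746-109541025, plus strand: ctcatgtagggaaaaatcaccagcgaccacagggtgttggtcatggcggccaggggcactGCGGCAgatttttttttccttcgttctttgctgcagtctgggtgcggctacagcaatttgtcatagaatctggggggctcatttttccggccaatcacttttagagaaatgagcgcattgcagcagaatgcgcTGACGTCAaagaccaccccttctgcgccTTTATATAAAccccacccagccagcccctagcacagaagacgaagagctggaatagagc
Peg3 promoter, chr7:6730390-6730669, minus strand: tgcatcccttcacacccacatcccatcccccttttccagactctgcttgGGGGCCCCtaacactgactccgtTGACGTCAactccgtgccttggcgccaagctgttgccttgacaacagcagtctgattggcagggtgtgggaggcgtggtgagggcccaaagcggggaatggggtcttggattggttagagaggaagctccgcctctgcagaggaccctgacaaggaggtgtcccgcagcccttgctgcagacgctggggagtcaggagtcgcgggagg
Dlk1 promoter, chr12:109452573-109452852, plus strand: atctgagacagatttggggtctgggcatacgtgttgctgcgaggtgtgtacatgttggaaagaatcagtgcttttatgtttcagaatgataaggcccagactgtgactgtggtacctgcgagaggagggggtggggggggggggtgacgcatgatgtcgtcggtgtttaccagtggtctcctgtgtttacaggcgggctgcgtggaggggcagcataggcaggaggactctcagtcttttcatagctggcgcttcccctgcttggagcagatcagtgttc
Igf2r promoter, chr17:12769677-12769956, minus strand: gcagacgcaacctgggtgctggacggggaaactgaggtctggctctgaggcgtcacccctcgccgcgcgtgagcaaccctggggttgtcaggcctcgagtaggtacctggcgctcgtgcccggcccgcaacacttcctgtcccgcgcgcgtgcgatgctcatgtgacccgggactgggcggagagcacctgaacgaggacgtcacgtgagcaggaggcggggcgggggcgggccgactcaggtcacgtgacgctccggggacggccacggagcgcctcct
The cAMP response element was in 2 of the 15 member windows (Meg3 and Peg3) and in 1.74% of the 32851 windows of the table. The ZFP57 hexamer was in 5 member windows, a pair of which are overlapping Mest windows with the same 2 matches, and in 10.4% of all windows. The TATA box was in 1 (13.1% of all) and the PLAGL1 palindrome in 1 (0.986% of all). Of the windows shown, that of Igf2r, with none of the 4 motifs, held 32 CpG dinucleotides against 11 for Meg3, 11 for Peg3 and 9 for Dlk1. The median of all windows was 6, and the member windows ran from 1, in another Meg3 window, to 43, in a Grb10 one. These are matches to letters only.

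Several libraries went against their labels or carried other cells, and they touch results given further on. Libraries held 5970227 to 62463167 counts (median 21910062), the E16 forestomach pair being the shallowest. Levels are CPM, the counts of a gene scaled to a common library total, and the 31 libraries are not stated to come from separate animals, so that p-values measure the spread between these libraries. Cdx2 stood at 14.5 to 27.5 CPM in the 3 libraries labelled deleted at E10 against 196 and 218 CPM in E16 WT intestine. It was not reduced in the libraries labelled knockout at E13 (213 and 217 CPM), at E15 (388 and 371 CPM, against 200 and 206 in E18 WT) or in the adult (472 and 462 CPM, against 242 and 248 in adult WT). Which part of the gene is deleted is not given in the sources used here, and reads from the rest of it would still be counted, so these values do not settle the labels. The libraries labelled E12 hindstomach held 29.6 and 32.3 CPM of Hoxd13, a hindgut gene at 0.0352 CPM or less in every other library, and at most 0.569 CPM of Gata4, which stood at 338 and 357 CPM in E14 hindstomach; these 2 genes were picked after their values were seen. Cdx2 in these libraries differed from E12 intestine by 0.05 on the log2 scale, not called, and E12 forestomach differed from them by -5.95. The pair is written here as the libraries labelled E12 hindstomach. The libraries labelled deleted at E13 resembled E18 WT (mean Spearman correlation across genes 0.933) more than E16 WT (0.840), although both E16 groups were prepared alike, and were closest to the E18 libraries labelled deleted at E15 (0.957). All E12 to E16 libraries came from Epcam-sorted cells, whereas the E18 libraries came from EDTA-released villi without a sort. The 18 mesenchyme markers summed to 12164 and 14701 CPM in E16 forestomach, 6508 and 6946 in E16 hindstomach, 1522 and 1606 in E16 intestine, 1379 and 1670 in the libraries labelled E12 hindstomach, and 72.5 to 327 CPM in the other WT E12 and E14 libraries. Postn made up 89.8% of that sum in the libraries labelled E12 hindstomach. In E16 forestomach the 6 smooth muscle markers summed to 16126 and 20846 CPM and the 6 erythroid ones to 14222 and 19287, against 1570 and 1589 CPM for 6 epithelial markers such as Epcam and Krt8. Alas2 alone made up 94.1% of that erythroid sum, and 2 of the 6 erythroid genes were at 0.

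All 10 genes were present in each WT group from E12 to E16, and most were near zero at E18 and in the adult. This does not show which cells held them. E16 forestomach had few epithelial markers, and the libraries labelled E12 hindstomach went against their label. In E16 hindstomach mesenchyme markers, at 6508 and 6946 CPM, summed to about as much as the epithelial ones, at 6803 and 6560. E16 intestine held 1522 and 1606 CPM of mesenchyme markers. In each of the 9 WT groups from E12 to E16, every member had a mean of at least 10 CPM. That number was 8 of 10 in the libraries labelled deleted at E10, where Dlk1 and Mest fell short. It was 2 in the libraries labelled deleted at E13 (Igf2 and Igf2r), 2 in E18 WT (Igf2r and Cdkn1c), 1 in those labelled deleted at E15 (Igf2r), 2 in adult WT (Igf2 and Igf2r) and 1 in the adult libraries labelled knockout (Igf2r). Igf2r was therefore the member that stayed high after E16.

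**Figure D1:**
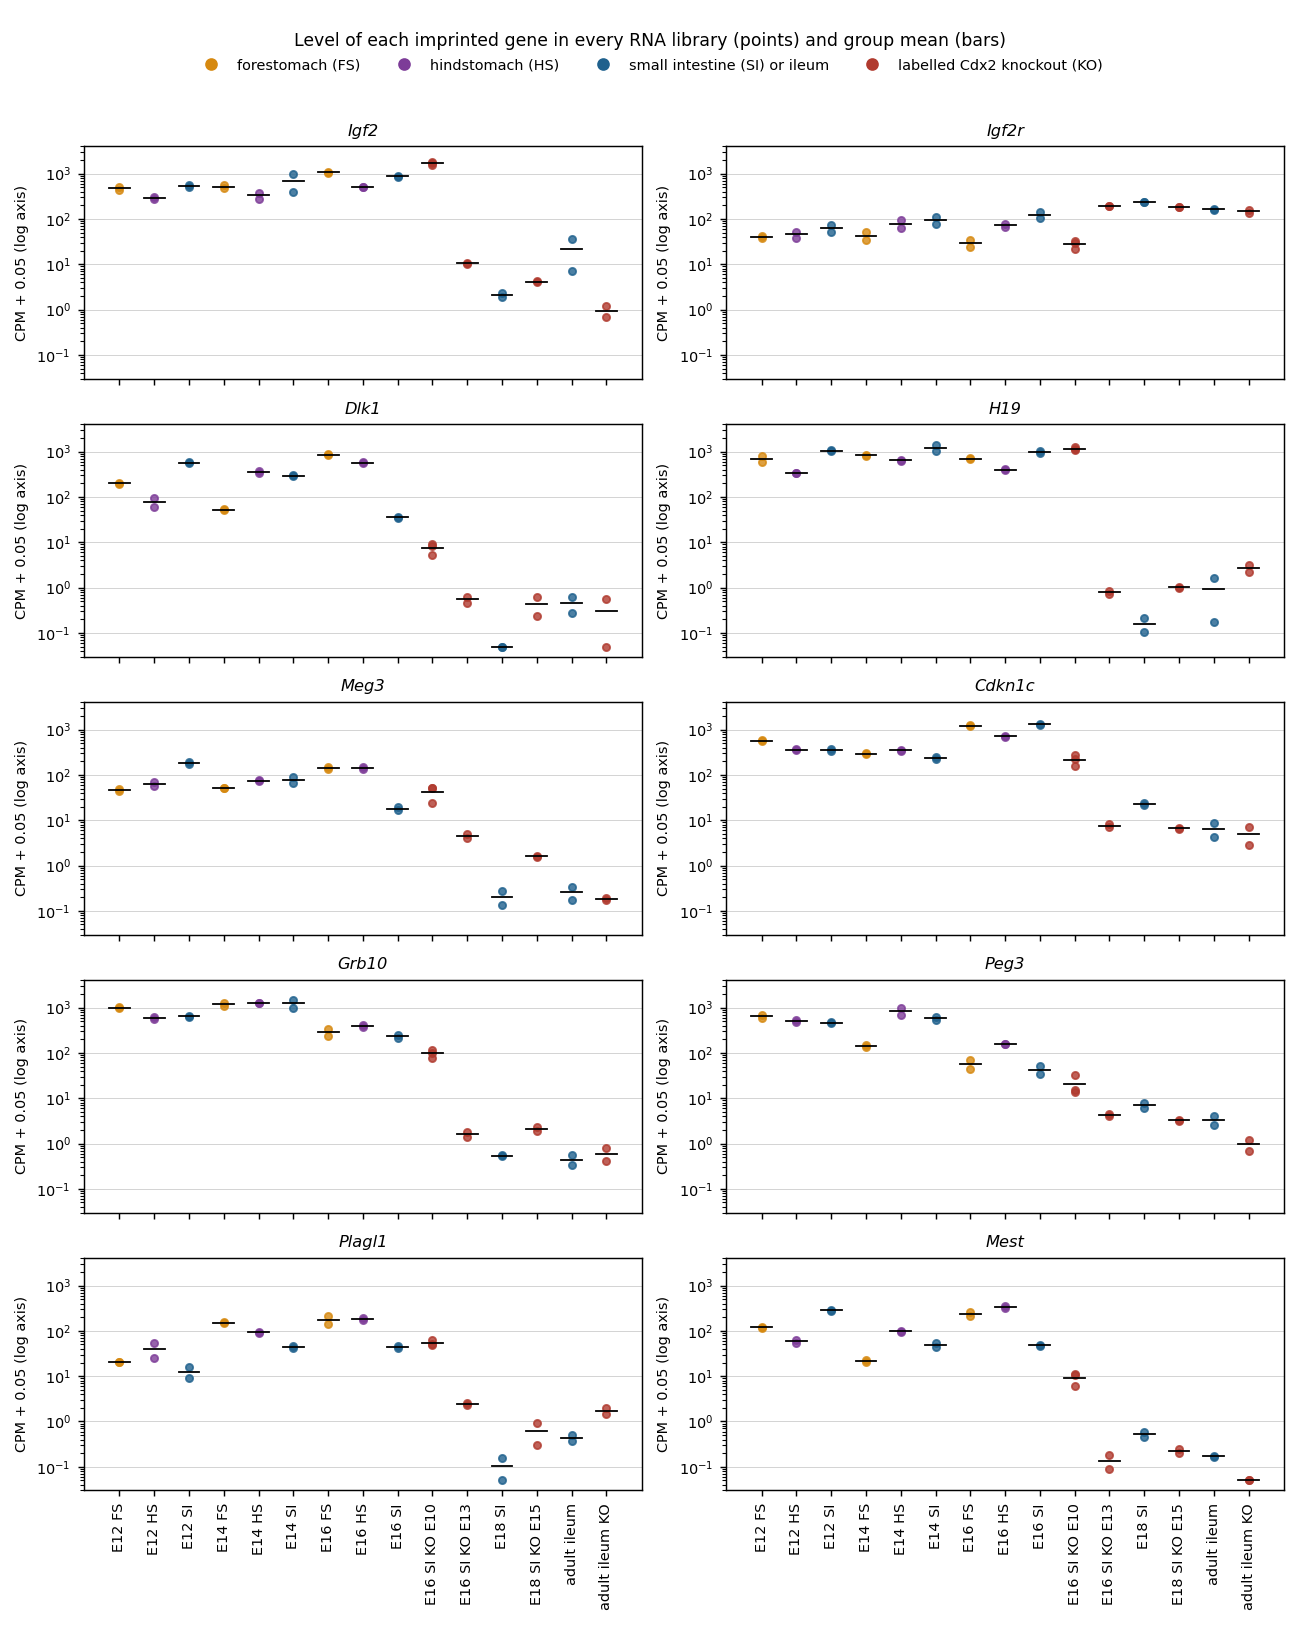
Level of each of the 10 genes in every RNA library: points are libraries, bars are group means, the vertical axis is CPM plus 0.05 on a log scale, and the horizontal axis gives the 15 groups (FS forestomach, HS hindstomach, SI small intestine, KO labelled Cdx2 knockout). From E12 to E16 all WT points lie at 8.86 CPM or above, while 8 of 10 genes have means under 10 CPM in E18 WT intestine; Igf2r is highest there, at 238 and 234 CPM.

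Igf2, the growth factor, held a high level in every WT group up to E16. It stood at 509 and 444 CPM in forestomach at E12, 558 and 479 at E14, and 1050 and 1095 at E16. In libraries labelled hindstomach it was 299 and 282 CPM at E12, 382 and 281 at E14, and 500 and 507 at E16. In small intestine it was 502 and 573 CPM at E12, 967 and 399 at E14, and 901 and 851 at E16. The 2 libraries of E14 intestine were far apart, with both forestomach libraries of that stage between them. The E16 forestomach pair lay above all WT hindstomach and intestine libraries. The rise in forestomach from E14 to E16 was 1.05 on the log2 scale (SE 0.25, edgeR adjusted p 0.00163) and was 0.94, below the fold needed for a call, without E14 forestomach replicate 2. The E16 forestomach pair is the one with 12164 and 14701 CPM of mesenchyme markers, and with their sum as a covariate the value was 4.49 and not called (edgeR adjusted p 0.70). That fit keeps a term for each group, so the slope of the covariate is set by differences between libraries of the same group. Here and below it therefore does not test the part of mesenchyme in a difference between groups. In E18 intestine 2.30 and 1.87 CPM remained.

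H19, the noncoding RNA next to Igf2, was highest in small intestine at each stage. It stood at 1019 and 1067 CPM in intestine at E12, 1386 and 1010 at E14, and 1041 and 923 at E16. Forestomach libraries held 801 and 590 CPM at E12, 844 and 814 at E14, and 738 and 671 at E16. Libraries labelled hindstomach held 334 and 344 CPM at E12, 660 and 614 at E14, and 412 and 393 at E16, below the intestine without overlap at each stage. The log2 difference from intestine was -1.62 in the libraries labelled E12 hindstomach (SE 0.16) and -1.29 in E16 hindstomach (SE 0.15), with edgeR adjusted p of 8.9e-07 and 2.57e-06; with the mesenchyme sum as a covariate both were -0.36 and not called. At E14 the difference was -0.91 (SE 0.15), under the fold needed for a call. From E14 to E16 the log2 change was between -0.66 and -0.24 in the 3 organs and was not called in any. Igf2os, an antisense transcript of the Igf2 locus, held at most 20.4 CPM in any library; the kits do not mark strand, so its reads cannot be told apart from those of Igf2.

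Igf2r, the receptor that removes IGF2, stayed present in intestine at E18, when the other members were called lower. In small intestine it stood at 72.4 and 50.8 CPM at E12, 109 and 75.4 at E14, 139 and 107 at E16 and 238 and 234 at E18. E14 lay above E12, E14 and E16 overlapped, and E18 lay above all of them. The increase from E16 to E18 was 0.94 on the log2 scale (SE 0.25, edgeR adjusted p 0.00393), just under the fold needed for a call. Forestomach held 41.1 and 38.7 CPM at E12, 34.3 and 51.3 at E14, and 24.2 and 34.0 at E16. At E16 that was lower than in intestine by -2.08 on the log2 scale (SE 0.27, edgeR adjusted p 3.61e-06) and lower than in hindstomach, at 67.0 and 77.6 CPM, by -1.31 (SE 0.27, adjusted p 0.000869). E16 forestomach held more mesenchyme markers than both, and with their sum as a covariate each of the 2 differences was -0.95 and not called. Airn, the transcript antisense to Igf2r, ran at 0.93 to 16.4 CPM over all libraries and cannot be separated from it by strand.

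At E12, Dlk1 and Meg3, the pair on chromosome 12, were highest in intestine, and from E14 to E16 they fell in intestine and rose in forestomach. Dlk1 in small intestine stood at 573 and 577 CPM at E12, 300 and 289 at E14, and 36.4 and 34.7 at E16. In libraries labelled hindstomach it was 60.3 and 94.1 CPM at E12, 336 and 374 at E14, and 557 and 581 at E16. In forestomach it was 197 and 207 CPM at E12, 52.8 and 51.6 at E14, and 877 and 824 at E16. No 2 of the labelled organs overlapped at any of the 3 stages. Meg3 in small intestine stood at 191 and 176 CPM at E12, 90.5 and 66.1 at E14, and 19.4 and 16.6 at E16. In libraries labelled hindstomach it was 56.0 and 70.2 CPM at E12, 77.7 and 71.8 at E14, and 151 and 132 at E16. Forestomach held 48.0 and 44.1 CPM at E12, 52.1 and 51.1 at E14, and 147 and 133 at E16, overlapping hindstomach at E16. From E14 to E16 in intestine Dlk1 fell by 3.05 on the log2 scale (SE 0.22, edgeR adjusted p 9.89e-09) and Meg3 fell by 2.12 (SE 0.26, edgeR adjusted p 2.96e-06). In forestomach over the same interval they rose, by 4.03 (SE 0.23, edgeR adjusted p 2.2e-10) and 1.44 (SE 0.25, edgeR adjusted p 9.53e-05), while 17 of 18 mesenchyme markers were called higher there. With the mesenchyme sum as a covariate the forestomach values were 1.20 for Dlk1 (edgeR adjusted p 1) and 2.04 for Meg3 (0.97), neither called, in a fit where 0.0464% of all genes were called in this comparison. In intestine over the same interval 10 of 18 mesenchyme markers were called higher, and with the covariate Dlk1 kept its call and Meg3, at -1.90, lost it (1.65% of all genes called). The pair did not move together in each comparison: from E12 to E14 in forestomach the log2 change was -1.95 for Dlk1, a call, and 0.17 for Meg3.

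The order of the organs in Mest also changed with stage. It stood at 276 and 287 CPM in small intestine at E12, 52.6 and 44.6 at E14, and 49.3 and 46.0 at E16. In forestomach it was 122 and 117 CPM at E12, 20.3 and 22.6 at E14, and 216 and 263 at E16. In libraries labelled hindstomach it was 63.5 and 53.4 CPM at E12, 97.0 and 96.6 at E14, and 316 and 350 at E16. Intestine lay above the other libraries at E12 and below them at E16, without overlap. The E12 to E14 fall was -2.54 on the log2 scale in intestine (SE 0.19) and -2.47 in forestomach (SE 0.19), with edgeR adjusted p of 4.35e-08 and 2.91e-08. The rise from E14 to E16 was 3.48 in forestomach (SE 0.20) and 1.78 in hindstomach (SE 0.18), with edgeR adjusted p of 7.74e-11 and 6.81e-07. Mesenchyme markers went from 163 and 165 CPM to 12164 and 14701 in forestomach and from 72.5 and 78.3 to 6508 and 6946 in hindstomach over that interval, and with their sum as a covariate the Mest values were 0.08 and -1.68, neither called. In intestine the E14 to E16 change was -0.03 (SE 0.18).

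**Figure D2:**
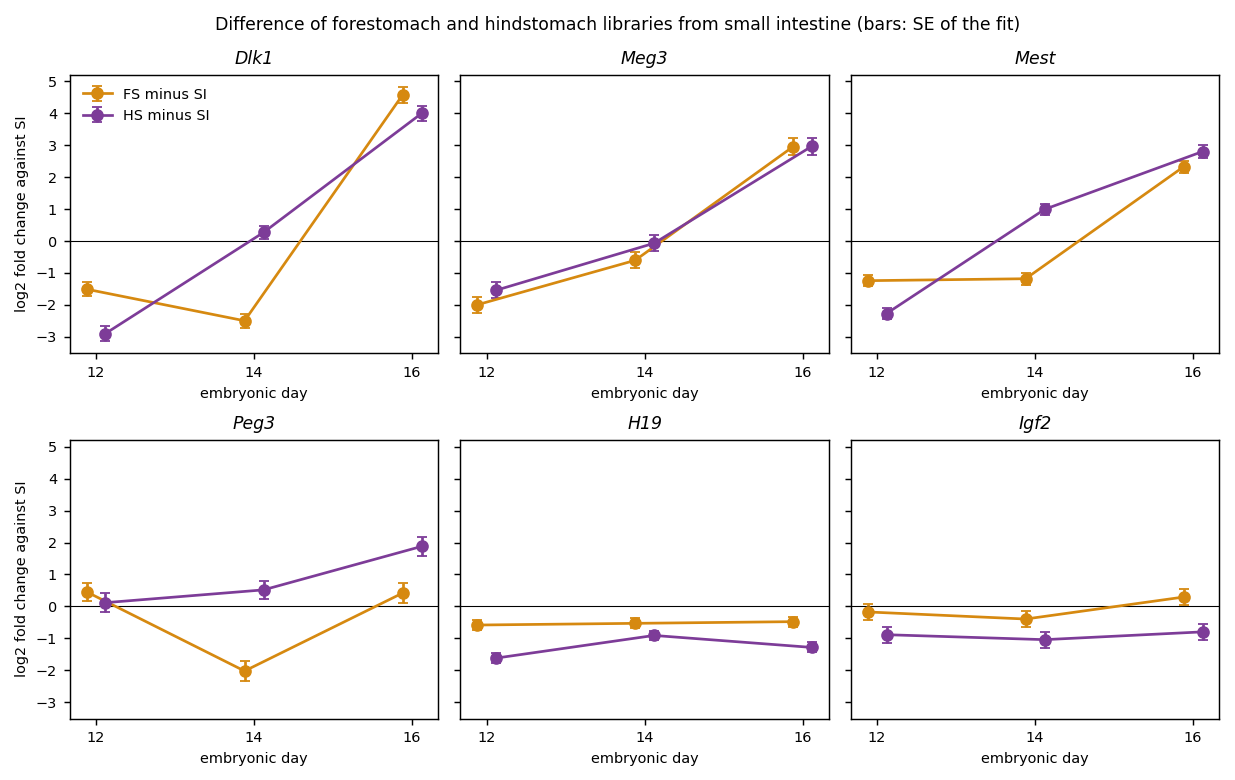
Log2 fold change of forestomach (FS) and hindstomach (HS) libraries against small intestine (SI) at embryonic day 12, 14 and 16 for 6 genes; points are fitted differences and bars their standard errors. Dlk1, Meg3 and Mest lie below zero in E12 forestomach and the libraries labelled E12 hindstomach, and between 2.33 and 4.58 at E16, whereas H19 stays between -1.62 and -0.48 at every stage.

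The genes that restrain growth, Cdkn1c and Grb10, went in opposite directions from E14 to E16 in all 3 organs. Cdkn1c stood at 370 and 341 CPM in small intestine at E12, 245 and 225 at E14, and 1335 and 1283 at E16. It stood at 297 and 295 CPM in E14 forestomach and 1200 and 1257 at E16, and at 346 and 345 CPM in E14 hindstomach and 698 and 738 at E16. The rises were 2.48 in intestine, 2.05 in forestomach and 1.05 in hindstomach on the log2 scale (SE 0.16 to 0.17), with edgeR adjusted p from 2.18e-09 to 6.53e-05. Grb10 stood at 990 and 1495 CPM in E14 intestine and 250 and 213 at E16, at 1109 and 1242 CPM in E14 forestomach and 233 and 335 at E16, and at 1239 and 1288 CPM in E14 hindstomach and 365 and 408 at E16. Every E14 library lay above every E16 one. The falls were -2.42, -2.05 and -1.71 in the same order of organs (SE 0.20 to 0.21), with edgeR adjusted p from 3.86e-08 to 3.77e-06. Over this interval 17 of 18 mesenchyme markers were called higher in forestomach, 18 in hindstomach and 10 in intestine. With their sum as a covariate neither gene was called in forestomach or hindstomach, and in intestine Cdkn1c kept its call while Grb10 lost it (-2.84, edgeR adjusted p 0.0694). Neither gene reached the fold needed for a call between any 2 organs at E12, E14 or E16, where the log2 differences ran from -0.866 to 0.775. With the covariate Cdkn1c was 1.5 and called in forestomach against hindstomach at E16.

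Peg3 and Plagl1, the zinc-finger genes, also differed from each other. Peg3 stood at 462 and 471 CPM in small intestine at E12, 632 and 532 at E14, and 52.4 and 33.4 at E16, a fall from E14 to E16 of -3.76 on the log2 scale (SE 0.33, edgeR adjusted p 4.35e-08), which was -1.45 and not called with the mesenchyme covariate. In libraries labelled hindstomach it was 471 and 539 CPM at E12, 976 and 689 at E14, and 161 and 155 at E16 (log2 change from E14 -2.40, SE 0.31, edgeR adjusted p 8.3e-06). All 18 mesenchyme markers were called higher in hindstomach over that interval. With their sum as a covariate the Peg3 value turned to 3.95, not called, which extends a slope set between libraries of the same group. Forestomach lost it earlier, from 599 and 680 CPM at E12 to 134 and 152 at E14 (log2 change -2.16, SE 0.30, edgeR adjusted p 4.3e-05), and held 43.4 and 71.2 at E16. All E12 libraries lay within 462 to 680 CPM of Peg3. Plagl1 rose from E12 to E14 in forestomach, from 20.3 and 20.9 CPM to 155 and 147, and in intestine, from 8.86 and 16.3 to 46.3 and 42.8. It stood at 24.7 and 53.4 CPM in the libraries labelled E12 hindstomach and 89.9 and 95.6 in E14 hindstomach. The log2 changes were 2.87 (SE 0.33), 1.82 (SE 0.32) and 1.25 (SE 0.31), with edgeR adjusted p of 4.78e-06, 0.000386 and 0.0051. The call of the last was lost without the first library labelled E12 hindstomach (0.80, edgeR adjusted p 0.0922).

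Organs were compared pairwise at E12, E14 and E16. A gene was called at an edgeR adjusted p below 0.05 and a log2 fold change of at least 1. At E12, 3 of 10 members were called between forestomach and the libraries labelled hindstomach, where 7.11% of all tested genes were called: Dlk1 (1.39), H19 (1.03) and Mest (1.03), all higher in forestomach. H19 was 0.80 and Mest 1.00 without E12 forestomach replicate 1, and Mest 0.91 without the second library labelled E12 hindstomach, none of them called. Mesenchyme markers summed to 121 and 128 CPM in E12 forestomach against 1379 and 1670 in the libraries labelled hindstomach, and with that covariate no member was called (0.0638% of all genes), with Dlk1 at 3.00, Mest at 2.95 and H19 at -0.55. Against E12 intestine, 3 members were lower in forestomach (10.1% of all tested genes called), Dlk1 (-1.51), Meg3 (-1.998) and Mest (-1.24); with the covariate Meg3 kept its call and Dlk1 (-1.17) and Mest (-0.84) lost it (4.45% of all). In the libraries labelled E12 hindstomach 5 were called against intestine (9.28% of all), with Dlk1 (-2.90), H19, Meg3 (-1.54) and Mest (-2.27) lower and Plagl1 (1.64) higher; with the covariate none was called (0.232% of all), with Dlk1 at -4.18, Meg3 at -1.27, Mest at -3.79 and Plagl1 at -0.43. The Plagl1 call was lost without the second library labelled E12 hindstomach (0.97). The 5 pancreas markers summed to 0.479 and 1.05 CPM in those libraries and to 353 to 391 in the other E12 ones.

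At E14 the forestomach stood apart through low Dlk1, Mest and Peg3. Between forestomach and hindstomach 3 members were called (8.46% of all tested genes), with Dlk1 at -2.77, Mest at -2.17 and Peg3 at -2.54. Between forestomach and intestine 5 were called (11.9% of all), with Dlk1 (-2.50), Igf2r (-1.11), Mest (-1.18) and Peg3 (-2.02) lower and Plagl1 (1.76) higher in forestomach. The Igf2r call was lost without E14 forestomach replicate 1 (-0.85) or E14 intestine replicate 1 (-0.82). Between hindstomach and intestine 2 members were called (6.83% of all), Igf2 (-1.04) and Plagl1 (1.06). Without a minimum fold 5 were called there (11.3% of all) and 4 between forestomach and hindstomach (11.7% of all). Igf2 lost its call without E14 hindstomach replicate 2 (-0.84) or E14 intestine replicate 1 (-0.27), and Plagl1 lost it without any 1 of the 4 libraries (1.00 to 1.11). The 5 pancreas markers ran in the same order of organs as Dlk1, Mest and Peg3. They summed to 83.2 and 88.8 CPM in forestomach, 724 and 752 in hindstomach and 219 and 247 in intestine. Sums of enteric neural and mesothelium markers ran in that order too, lowest in forestomach and highest in hindstomach, without overlap. Those of mesenchyme, smooth muscle, endothelium, erythroid, immune and hepatocyte markers did not. The part of these lists in the result was not tested. Of 18 mesenchyme markers, 3 were called higher and 1 lower in forestomach than in hindstomach, 1 higher and 6 lower than in intestine, and 9 lower in hindstomach than in intestine. With their sum as a covariate Dlk1 and Mest kept their calls against hindstomach and Peg3 (-1.44) lost it (2.31% of all). Against intestine Dlk1, Peg3 and Plagl1 kept theirs in forestomach and Igf2r (-1.43) and Mest (-0.71) lost theirs (7.3% of all), and Igf2 (-2.11) and Plagl1 (2.48) lost theirs in hindstomach (0.922% of all).

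At E16 Dlk1, Meg3, Mest and Plagl1 were higher in both parts of the stomach than in intestine. Forestomach differed from intestine in 5 members (35% of all tested genes called): Dlk1 (4.58, SE 0.24, edgeR adjusted p 4.8e-11), Meg3 (2.96), Mest (2.33) and Plagl1 (1.98) were higher and Igf2r lower. Hindstomach differed from intestine in 6 (25.7% of all): Dlk1 (4.00, SE 0.23, edgeR adjusted p 6.73e-10), Meg3 (2.98), Mest (2.81), Plagl1 (2.06) and Peg3 (1.88) were higher and H19 lower. Mesenchyme markers were called higher in the same comparisons, 13 of 18 in forestomach and 9 of 18 in hindstomach. The 6 smooth muscle markers summed to 1810 and 1830 CPM in hindstomach against 217 and 275 in intestine, and the 6 enteric neural ones to 670 and 669 against 55.1 and 64.4 (67.6 and 48.5 in forestomach); the part of these 2 lists was not tested. With the mesenchyme sum as a covariate no member was called in forestomach (1.93% of all genes) and 1, Peg3, in hindstomach (1.83% of all), with a median SE of the members over all comparisons of 0.91 in place of 0.25. Values with the covariate were 3.20 for Dlk1, 3.25 for Meg3, 0.67 for Mest, -0.23 for Plagl1 and -0.95 for Igf2r in forestomach. In hindstomach they were 3.06 for Dlk1, 3.17 for Meg3, 1.68 for Mest, 0.57 for Plagl1 and -0.36 for H19. Forestomach differed from hindstomach in 3 members (20.1% of all), with Igf2 (1.09) higher and Igf2r and Peg3 (-1.46) lower. With the covariate Igf2 kept its call, Igf2r (-0.95) and Peg3 (-0.46) lost theirs, and H19 (1.24) and Cdkn1c (1.5) were called (9.83% of all). In that comparison 31.2% of all calls were higher in forestomach with TMM and 43.5% with RLE scaling.

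Whether an organ difference itself changed from E12 to E16 was tested as an interaction. Interactions with hindstomach use the libraries labelled E12 hindstomach, whose markers went against their label. In these a change with stage cannot be told apart from a difference in tissue. Between hindstomach and intestine 4 members were called, Dlk1, Meg3, Mest and Peg3 (20.3% of all tested genes). Between forestomach and intestine 5 were called, Dlk1, Igf2r, Meg3, Mest and Plagl1 (30.8% of all). Between forestomach and hindstomach 4 were called, Grb10, Igf2r, Mest and Peg3 (20.2% of all). The Igf2r call between the stomach regions was lost without E16 forestomach replicate 1 (-0.90), among other libraries, and with RLE scaling (-0.93), and the Plagl1 call without E12 intestine replicate 2 (0.76).

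Change with age within an organ was tested in the same fit. From E12 to E14, 4 members were called in forestomach (12.7% of all tested genes): Dlk1 (-1.95), Mest and Peg3 fell and Plagl1 rose. Over that interval pancreas markers fell from 391 and 353 CPM to 88.8 and 83.2, and erythroid ones from 214 and 186 to 30.5 and 27.3. Hepatocyte markers fell from 21.5 and 17.5 CPM to 1.20 and 1.19. Enteric neural and mesothelium sums also fell, and mesenchyme, smooth muscle and immune sums rose. The part of these lists was not tested. Between E14 hindstomach and the libraries labelled E12 hindstomach 3 were called (17.2% of all), Dlk1 (2.20), Grb10 (1.11) and Plagl1, all higher at E14. With the mesenchyme covariate they were 4.14 for Dlk1, 1.88 for Grb10 and 4.35 for Plagl1, none called (0.18% of all). Pancreas markers summed to 1.05 and 0.479 CPM in the libraries labelled E12 hindstomach and 724 and 752 in E14 hindstomach, and their part was not tested. In intestine from E12 to E14, 3 were called (16.2% of all), with Meg3 (-1.23) and Mest lower and Plagl1 higher at E14. With only E12 and E14 intestine in the fit fewer members were called. From E14 to E16, 7 were called in forestomach (37.7% of all): Cdkn1c, Dlk1, Igf2, Meg3 and Mest rose, and Grb10 and Peg3 (-1.32) fell. Of all calls there 55.2% were higher at E16 with TMM and 67.6% with RLE scaling. RLE scaling moved the median of all genes by 0.11 to 0.26 in 7 of the 23 comparisons. In hindstomach 4 were called (22% of all), with Cdkn1c and Mest higher and Grb10 and Peg3 lower. In intestine 5 were called (25.6% of all), with Cdkn1c higher and Dlk1, Grb10, Meg3 and Peg3 lower. All 18 mesenchyme markers were called higher in hindstomach over this interval, and with their sum as a covariate no member was called there (0.029% of all genes) or in forestomach (0.0464% of all). With it Cdkn1c was 6.68 in forestomach and 5.77 in hindstomach and Grb10 -3.18 and -2.85, larger in size than without it, whereas Mest was 0.08 and -1.68 and Peg3 4.93 and 3.95; Igf2 in forestomach was 4.49.

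Between E16 and E18 the intestinal epithelium held little of this expression at the later stage. All members but Igf2r, 9 of 10, were called lower at E18, where 42.1% of all tested genes were called in either direction and 22.1% were lower. H19 went from 1041 and 923 CPM to 0.164 and 0.0549, which is 2 and 1 counts; the ratio of CPM was 9968 with a 95% counting interval of 3410 to 48336. Dlk1 had 0 counts in both E18 libraries, so that it was at least 361-fold lower against a floor of 3 counts over the group. Plagl1 had 0 and 2 counts, a ratio of 671 (counting interval 185 to 5546). Igf2 fell by 8.73 on the log2 scale (SE 0.37), Grb10 by 8.86 (SE 0.33), Meg3 by 6.74 (SE 0.46), Mest by 6.58 (SE 0.28), and Cdkn1c by 5.86 (SE 0.20), and the log2 fold change of Peg3 was -2.65 (SE 0.34), with edgeR adjusted p of 1.83e-06 or less. The median log2 fold change of the 10 members was -7.61 with the genes near zero at those ratios, and that of all tested genes -0.05. The 15 mesenchyme markers called lower in E18 moved with the members, and their sum, 33.9 and 36.7 CPM, was 92.6% Prrx1 with 9 of 18 markers at 0. With the mesenchyme covariate 4 members were called (0.946% of all genes), Cdkn1c, Grb10, H19 and Igf2; fitted values of those not called, which are no bounds for Dlk1 and Plagl1, were -10.31 for Dlk1, -7.99 for Peg3, -7.25 for Meg3, -5.41 for Plagl1 and -3.66 for Mest. Smooth muscle markers also went from 217 and 275 CPM at E16 to 5.34 and 4.17 at E18, and immune ones from 181 and 176 to 362 and 364; the part of these lists was not tested. The E18 cells were released from villi and not sorted for Epcam, so that age and preparation cannot be told apart; counting intervals cover counting error only.

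**Figure D3:**
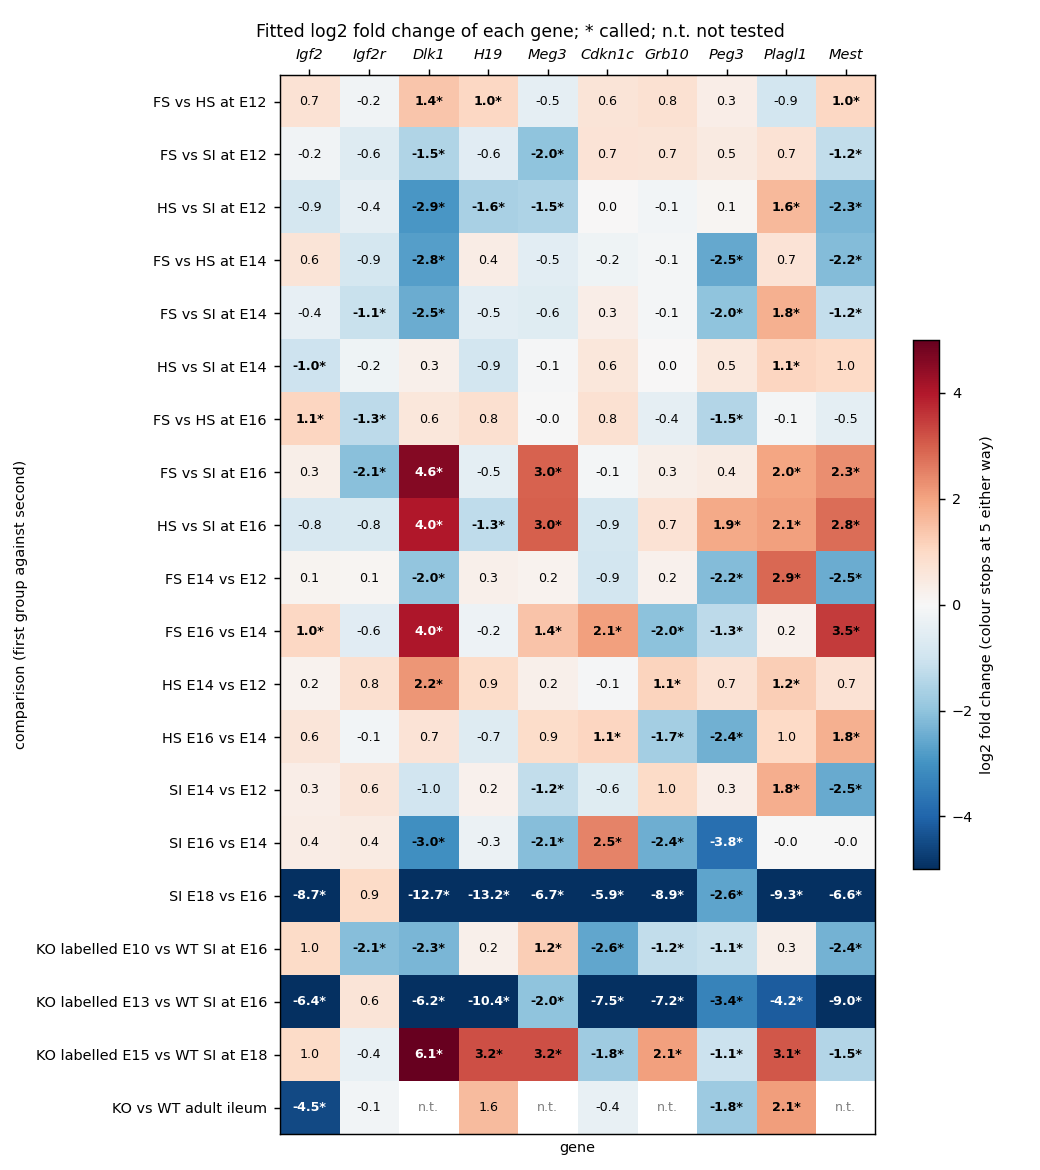
Fitted log2 fold change of each gene (columns) in 20 comparisons (rows, first group against second); a star marks a call, n.t. a gene below the expression filter, and the colour scale stops at 5. The rows for E18 against E16 and for the libraries labelled deleted at E13 are negative for 9 of 10 genes, Igf2r being the exception; fitted values of genes with 0 to 3 counts in a group depend on the prior count and are not bounds.

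The libraries labelled Cdx2 knockout carry labels of deletion at different ages, but of the embryonic ones only those labelled deleted at E10 had less Cdx2 than WT. In the libraries labelled deleted at E10, in which Cdx2 was low, 7 members were called against E16 WT intestine, where 51.5% of all tested genes were called. Cdkn1c fell by 2.59 on the log2 scale (SE 0.15) to 224, 155 and 273 CPM, and Igf2r fell by 2.14 (SE 0.23) to 21.9, 29.3 and 33.2 CPM. Dlk1 fell by 2.29 (SE 0.21) to 5.08, 8.98 and 8.03 CPM, Mest by 2.35 (SE 0.18), Grb10 by 1.23 (SE 0.18) and Peg3 by 1.10 (SE 0.28). Meg3 rose by 1.22 (SE 0.24) to 24.3, 51.8 and 50.4 CPM, so that the 2 genes of the chromosome 12 pair were called in opposite directions. Adjusted p in edgeR for these 7 was 0.00192 or less. H19, at 1078, 1124 and 1295 CPM, differed by 0.25 on the log2 scale (SE 0.14, edgeR adjusted p 0.131). Igf2, at 1568, 1707 and 1849 CPM, lay above every other library of the series, with a difference of 0.96 on the log2 scale (SE 0.23, edgeR adjusted p 0.00124) that fell short of the fold needed for a call; it was 1.11 and called with RLE scaling. The Peg3 call was lost without WT replicate 1 (-0.74), knockout replicate 1 (-0.94) or knockout replicate 2 (-0.79), and with RLE scaling (-0.96). Igf2 was called without knockout replicate 1 (1.02) or 2 (1.05). In these libraries 15 of 18 mesenchyme markers were called lower and their sum was 64.0 to 106 CPM. Smooth muscle markers summed to 154, 220 and 299 CPM against 217 and 275 in E16 WT and the 4 mesothelium ones to 111, 62.5 and 65.3 against 70.7 and 64.3, overlapping WT. Enteric neural markers, at 2.27 to 11.1 CPM against 55.1 and 64.4, and endothelium ones, at 2.35 to 10.8 against 43.1 and 50.5, were lower. So were erythroid ones, at 5.01 to 12.1 against 177 and 179, and immune ones, at 53.9, 146 and 56.0 against 181 and 176. Alas2 made up 92.5% of the erythroid sum in WT and Hbb-y 73.4% in these libraries. Epithelial markers were higher, at 15545 to 28733 CPM against 9157 and 8885. The part of these lists was not tested. With the mesenchyme covariate 1 member was called (3.58% of all genes), Cdkn1c; Peg3 was at -5.31 and Igf2r at -3.66, larger in size than without it, and Meg3 was at 0.82, Grb10 at -0.47, Dlk1 at -0.42 and Mest at -0.11.

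The libraries labelled deleted at E13 were low in the same 9 members that were lower at E18. Against E16 WT intestine 9 of 10 were called lower (39.5% of all tested genes called). H19 stood at 0.661 and 0.803 CPM (log2 fold change -10.38, SE 0.25), Igf2 at 10.04 and 10.84 (-6.39, SE 0.31), Cdkn1c at 8.02 and 6.87 (-7.46, SE 0.22) and Grb10 at 1.32 and 1.74 (-7.24, SE 0.28), with edgeR adjusted p of 7.81e-12 or less. Mest had 1 and 3 counts, a ratio of 556 with a counting interval of 217 to 2043. Meg3 (-2.01), Peg3 (-3.36), Plagl1 (-4.17) and Dlk1 (-6.16) were also lower, and Igf2r, at 193 and 190 CPM, had a log2 fold change of 0.64. These libraries held as much Cdx2 as WT, and 15 of 18 mesenchyme markers were called lower in them; with the mesenchyme covariate 5 members were called (1.87% of all genes), Cdkn1c, Grb10, H19, Igf2 and Mest, with Peg3 at -7.50, Dlk1 at -4.27, Meg3 at -2.41 and Plagl1 at -1.17. Smooth muscle markers, at 5.00 and 6.65 CPM against 217 and 275, and endothelium ones, at 4.79 and 3.70 against 43.1 and 50.5, were lower too. So were erythroid ones, at 3.18 and 3.93 against 177 and 179, with Alas2 98.2% of that sum here and 92.5% in WT. Immune (66.0 and 66.2 against 181 and 176), enteric neural (12.7 and 13.2 against 55.1 and 64.4) and mesothelium markers (14.5 and 14.4 against 70.7 and 64.3) were also lower. Epithelial ones were higher, at 12339 and 12560 CPM against 9157 and 8885. The part of these lists was not tested. The libraries labelled deleted at E13 were Epcam-sorted like the E16 WT libraries. Side by side with E18 WT, their levels of H19 (0.164 and 0.0549 CPM in E18 WT), Igf2 (2.30 and 1.87) and Meg3 (4.92 and 3.97 against 0.0822 and 0.220) were higher, and those of Cdkn1c lower (21.6 and 23.4 in E18 WT); these differences were not tested.

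In the libraries labelled deleted at E15, set against E18 WT, 8 members were called (17.5% of all tested genes), and all 8 were at low levels. Of those higher, Grb10 stood at 1.86 and 2.26 CPM against 0.493 and 0.494 (log2 fold change 2.06, SE 0.39), and Meg3 at 1.60 and 1.53 against 0.0822 and 0.220 (3.21, SE 0.59). H19 had 18 and 26 counts against 2 and 1, a ratio of 9.79 (counting interval 3.14 to 49.3), and Plagl1 5 and 23 counts against 0 and 2, a ratio of 9.35 (2.36 to 81.0). Dlk1 had 11 and 5 counts against none and was at least 3.56-fold higher. Cdkn1c was lower, at 6.41 and 6.69 CPM against 21.6 and 23.4 (-1.78 on the log2 scale, SE 0.18, edgeR adjusted p 5.13e-07), as were Mest (-1.46) and Peg3 (-1.09). The Mest call was lost without any 1 of the 4 libraries (-1.64 to -1.20), and so was that of Peg3 (-1.28 to -0.90). Plagl1 lost its call without either WT library or replicate 2 of those labelled knockout, and Dlk1 without WT replicate 2. With the mesenchyme covariate Mest (-0.76) and Plagl1 (4.03) lost theirs and 6 were called (6.07% of all). Without E18 WT replicate 2 the number called was 4. Igf2r, at 185 and 180 CPM against 238 and 234, was not called. The 6 immune markers summed to 12.97 and 15.2 CPM in these libraries and 362 and 364 in E18 WT, and their part in the result was not tested.

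Adult ileum held the members at low levels apart from Igf2r and, in 1 library, Igf2. Igf2r stood at 159 and 168 CPM in WT and 160 and 136 in the libraries labelled knockout (log2 fold change of Igf2r -0.14, SE 0.13). Cdx2 was higher in those libraries than in WT. Of the 10 members 6 passed the expression filter, the rest, Dlk1, Grb10, Meg3 and Mest, being at 0.745 CPM or less in each adult library. Called were 3 (20.4% of all tested genes): Igf2 (-4.52, SE 0.95, edgeR adjusted p 0.0251), Peg3 (-1.83, SE 0.46, adjusted p 0.0386) and Plagl1 (2.10, SE 0.45, adjusted p 0.0261). Igf2 stood at 36.3 and 7.09 CPM in WT and 1.16 and 0.642 in the libraries labelled knockout, so that the groups did not overlap, with the 2 WT libraries far apart. Igf2 lost its call without either library labelled knockout, and Peg3 and Plagl1 without any 1 of the 4; no member was called without replicate 1 or without replicate 2 of those labelled knockout. With the replicate number as a block the Plagl1 call was lost too (edgeR adjusted p 0.0619). H19 was 0.125 and 1.59 CPM in WT and 3.06 and 2.14 in those labelled knockout (1.58, SE 0.93) and was called with all 31 libraries in one fit (1.72) and without WT replicate 2 (4.31). Immune markers summed to 28.1 and 64.2 CPM in WT and 4.76 and 4.85 in the libraries labelled knockout. The enteric neural list went from 11.2 and 5.44 to 225 and 330 CPM, 99.9% of the latter being Ret; the part of these lists was not tested.

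Other genes of these families were followed from lists, in comparisons where mesenchyme markers also moved: 9 of 18 were called higher in hindstomach and 13 in forestomach against intestine at E16, 18 in hindstomach and 10 in intestine from E14 to E16, and 15 lower at E18 and in both E16 groups labelled knockout. Their part in these counts was not tested. Of 37 further imprinted genes 36 were tested in the embryonic fit. In hindstomach against intestine at E16, 18 were called higher and none lower (17.5% and 8.1% of all tested genes), with a median log2 fold change of 1.58 against 0.18 for all genes. In forestomach against intestine at E16, 12 were higher and 5 lower (18.6% and 16.4% of all). From E14 to E16, 14 were called lower and 5 higher in intestine (25.6% of all tested genes called), led by Zim1 (-4.52), Peg10 (-3.92) and Dio3 (-3.48), and 7 higher and 4 lower in hindstomach (22% of all), with Nnat (2.93, at 453 and 460 CPM in E16) and Zim1 (-3.86) among the largest. At E18, 16 were called lower than at E16 and 3 higher (42.1% of all); Ndn, a growth-suppressor gene, Sgce and Zdbf2 had 0 counts in both E18 libraries. In the libraries labelled deleted at E10, 13 were higher and 7 lower, 20 of 36 where 51.5% of all genes were called, with Phlda2, a growth-restraining gene of the placenta, at 77.1 to 96.6 CPM against 6.17 and 8.15 (3.55 on the log2 scale, SE 0.41, edgeR adjusted p 3.24e-07). In those labelled deleted at E13, 18 were lower and 2 higher (39.5% of all), and in those labelled deleted at E15, 5 were higher and 3 lower (17.5% of all).

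Of 22 genes of insulin-like growth factor signalling, all tested, 12 were called lower and 2 higher at E18 against E16 intestine (42.1% of all tested genes called). Igf2bp1, an RNA-binding protein of fetal tissue that binds Igf2 messenger RNA, and the binding proteins Igfbp2 and Igfbp5 were at 26.8 and 32.0, 11.7 and 14.9, and 7.35 and 7.86 CPM at E16 and at 0 counts in both E18 libraries. In hindstomach from E14 to E16, 7 rose and 3 fell (22% of all), with the ligand Igf1 up by 3.64 on the log2 scale (SE 0.56) to 153 and 168 CPM, Igfbp7 up by 3.55 and Igfbp6 up by 5.18, where all 18 mesenchyme markers were called higher, with a median of 5.07, and their part was not tested; in intestine 3 rose and 9 fell (25.6% of all). In the libraries labelled deleted at E10, 8 were higher and 6 lower (51.5% of all), and Igfbp2 stood at 567 to 1018 CPM against 11.7 and 14.9 in E16 WT (5.92, SE 0.22, edgeR adjusted p 3.3e-13). In those labelled deleted at E13, 11 were lower and 5 higher (39.5% of all), with the fetal RNA-binding protein Igf2bp3 at 0.892 and 1.28 CPM against 218 and 236. In those labelled deleted at E15, 3 of 22 were higher and none lower, where 17.5% of all genes were called, and Igfbp4 stood at 83.9 and 87.7 CPM against 8.05 and 8.95. In the adult libraries labelled knockout Igfbp4 was higher too (2.41, SE 0.17) and Irs2, a substrate of the receptors, lower (-2.37, SE 0.13), with edgeR adjusted p of 0.00248 and 0.00153.

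The members did not follow the mesenchyme markers in 1 way. The correlation of log2 CPM with the log2 sum of mesenchyme markers, over the 9 WT group means from E12 to E16, was 0.70 for Cdkn1c, 0.50 for Igf2, 0.47 for Plagl1, 0.40 for Mest and 0.21 for both Dlk1 and Meg3. It was negative for Igf2r (-0.17), H19 (-0.39), Peg3 (-0.69) and Grb10 (-0.85). Over all 13 embryonic groups, which include the labelled knockouts and E18, it was 0.35 to 0.74 for every member but Igf2r (-0.45), with 0.53 for H19, 0.35 for Peg3 and 0.49 for Grb10. These are descriptions over groups that share stage and organ. E14 hindstomach had the lowest mesenchyme sum of the WT groups up to E16, 72.5 and 78.3 CPM, and held 660 and 614 CPM of H19, 336 and 374 of Dlk1 and 976 and 689 of Peg3. E16 hindstomach, at 6508 and 6946 CPM of mesenchyme markers, held 412 and 393 of H19, 557 and 581 of Dlk1 and 161 and 155 of Peg3. The E18 libraries and those labelled deleted at E13 were low in both, with 81.5 and 84.1 CPM of mesenchyme markers in the latter, a sum slightly above that of E14 hindstomach. In such cell populations fewer cells of a type and less RNA per cell cannot be told apart.

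**Figure D4:**
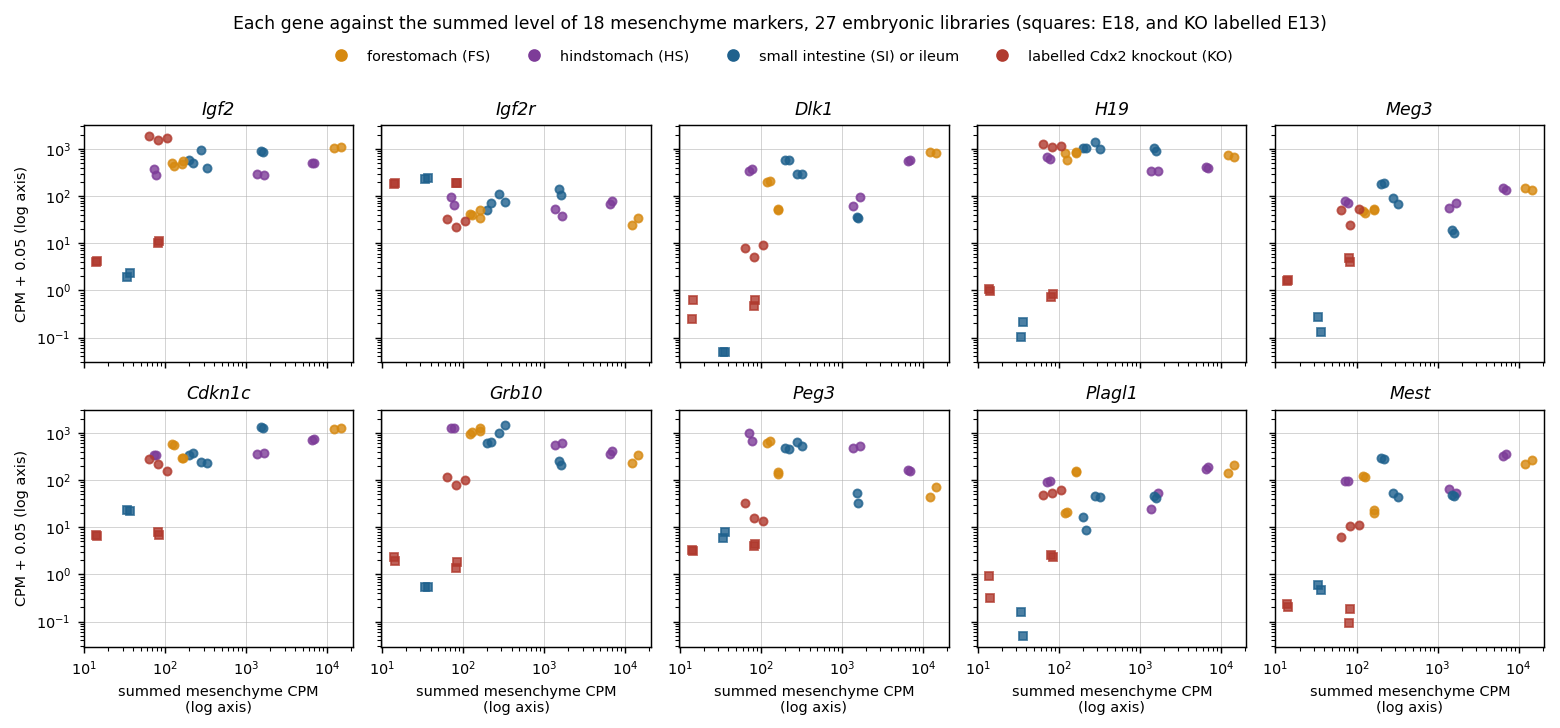
Level of each gene (CPM plus 0.05, log axis) against the summed CPM of 18 mesenchyme markers (log axis) in the 27 embryonic libraries; colours give organ or labelled knockout, and squares are the E18 libraries and those labelled deleted at E13. Libraries with mesenchyme sums of 64.0 to 106 CPM include both the highest Igf2 levels, in circles labelled knockout, and levels near 10 CPM, in squares.

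Some members ran together across the organs. Over the 9 WT group means from E12 to E16, Pearson's r of log2 CPM was 0.87 between Dlk1 and Meg3, 0.84 between Dlk1 and Mest, 0.80 between Peg3 and Grb10 and 0.72 between Meg3 and Mest. Cdkn1c ran against Grb10 (-0.88) and Peg3 (-0.79). Igf2 and H19, which share a control region, had an r of 0.55. With the 4 other embryonic groups added, 3 of them at 10.84 CPM or less in both genes, r of Igf2 and H19 was 0.981 over 13 group means. Among 10672 genes, those with the most similar pattern over the 13 groups were Rbms3 for Dlk1 (r = 0.984) and for Meg3 (0.968), Smtnl2 for Grb10 (0.993), Vash2 for Peg3 (0.977), Slc12a7 for Igf2r (0.979), Vangl1 for Plagl1 (0.965), Epdr1 for Cdkn1c (0.966) and Fndc4 for Mest (0.966). Over the 9 WT groups those values were 0.90 and 0.88 for Rbms3, 0.93, 0.94, 0.97, 0.85, 0.81 and 0.63 in the same order. Nt5dc2, the closest to H19 over 13 groups (0.986), had an r of 0.00 over the 9.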

How the data were processed

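RNA-seq was analysed in 31 of 74 samples; the other 43, from chromatin assays, were not used. The authors deposited unnormalized counts of reads for each gene symbol. Reads were 75 bp single-end, with the SMARTer v4 kit for embryonic and TruSeq V2 for adult RNA, per the labels' protocols. The submitters' processing notes name STAR 2.5.3a, HTSeq and mm9; how strand was treated in counting is not given in the sources used here. Each adult column has 2 blank cells, which were closed up; all 10 members lie above the first. The table has 2 columns of no sample, which were not used.

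The test was that of edgeR 4.0.16 under R 4.3.3 (TMM scaling, filterByExpr with a minimum count of 10, quasi-likelihood F test, Benjamini-Hochberg adjustment over all genes tested). One fit held the 13 embryonic groups with 27 libraries (17239 genes), another the 4 adult libraries (12444 genes). SE is the size of a log2 fold change over the root of its F statistic; CPM use TMM-adjusted library sizes. Tests were checked on simulated data, with changed genes drawn from all those tested. Of 100 genes changed 2-fold 18 to 35 were recovered at an adjusted p below 0.05, and of 100 changed 4-fold 58 to 77. A gene that was not called may therefore still differ. Alternatives were RLE scaling, DESeq2 1.42.0, no expression filter, other sets of libraries, a replicate block, a mesenchyme covariate and no minimum fold. Where a group held 3 counts or fewer of a gene in each library, the ratio of CPM with a 95% counting interval, or a bound, replaces the fitted value. The members and lists were chosen with earlier results of these data known. All members are named; other genes by name are the up to 3 called per list with the largest change and an average log2 CPM of at least 2 in the hindstomach and intestine E16, E18 and knockout comparisons, and the genes with the most similar pattern, of which the first of 3 is given.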

Additional observations from a re-analysis of the deposited data

Results flagged for a closer look

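The difference between organs itself changed from E12 to E16 in 13 of 30 tests of members (interaction term of the embryonic fit, edgeR adjusted p below 0.05 and a change of at least 1 on the log2 scale). Hindstomach minus intestine moved upwards for Dlk1 by 6.89 (SE 0.32, adjusted p 1.51e-10), for Mest by 5.08 (SE 0.27), for Meg3 by 4.52 (SE 0.36) and for Peg3 by 1.76 (SE 0.42), where 20.3% of all tested genes were called. Forestomach minus intestine moved upwards for Dlk1 by 6.09 (SE 0.31), for Meg3 by 4.96 (SE 0.37), for Mest by 3.57 (SE 0.26) and for Plagl1 by 1.26 (SE 0.45), and downwards for Igf2r (-1.45, SE 0.37), where 30.8% were called. Forestomach minus hindstomach moved downwards for Peg3 (-1.80, SE 0.42), Mest (-1.50, SE 0.25), Grb10 (-1.22, SE 0.28) and Igf2r (-1.12, SE 0.37), where 20.2% were called, 36.5% of them upwards with TMM and 48.0% with RLE scaling.

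The 2 comparisons with hindstomach use the libraries labelled E12 hindstomach, so a change with stage cannot be told apart from a difference in tissue. Those with forestomach use the E16 libraries rich in mesenchyme and smooth muscle markers and in Alas2. Of 18 mesenchyme markers, 11 were called upwards in hindstomach minus intestine and 13 in forestomach minus intestine. With the mesenchyme sum as a covariate the hindstomach change was 7.24 for Dlk1, 4.44 for Meg3 and 5.47 for Mest, all called, and 1.02 for Peg3, not called (14.4% of all genes called). The forestomach change was 4.38 for Dlk1, 5.32 for Meg3, 1.51 for Mest, -0.05 for Igf2r and -1.46 for Plagl1, none called (0.65% of all genes called). Between the stomach regions the change was 2.74 for Peg3, 0.53 for Igf2r, -3.96 for Mest and -2.04 for Grb10, none called (0.296% of all). The Igf2r call between the stomach regions was lost without any 1 of 5 libraries: either E12 forestomach library (-1.08 and -1.17), replicate 2 of those labelled E12 hindstomach (-0.92), E16 forestomach replicate 1 (-0.90) or E16 hindstomach replicate 2 (-1.02). It was also lost with RLE scaling (-0.93), DESeq2 (-0.93) and only the compared groups in the fit (-0.97). The Plagl1 call was lost without any 1 of 6, with values of 0.76 to 1.33: both E12 forestomach, both E16 intestine, E12 intestine replicate 2 and E16 forestomach replicate 2. Grb10 was -0.98 without E16 forestomach replicate 1.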

How the results depend on the processing

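RLE scaling and DESeq2 each left the number of members called within 1.5 times in all 23 comparisons, as did the fit without a low-count filter, and no called member's direction turned under them. RLE and DESeq2 each brought calls for Mest between hindstomach and intestine at E14, H19 between the stomach regions at E16, Meg3 and Plagl1 in hindstomach from E14 to E16, Dlk1 in intestine from E12 to E14 and Igf2 in the group labelled deleted at E10, and ended those of Peg3 in that group and of Igf2r in the change between the stomach regions. Without a minimum fold, 5 members were called between E12 forestomach and the libraries labelled hindstomach, 6 between forestomach and intestine at E12, 5 between hindstomach and intestine at E14, 7 between forestomach and hindstomach at E16, 10 between hindstomach and intestine at E16, 6 between E14 hindstomach and the libraries labelled E12 hindstomach, 6 in intestine from E12 to E14, and 8 in hindstomach from E14 to E16; in the same order 9.57%, 16.4%, 11.3%, 32.9%, 38.6%, 31.2%, 29.9% and 35.3% of all genes were then called. With only the compared groups in the fit, 1 was called in intestine from E12 to E14 and 5 in the libraries labelled deleted at E15.

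The mesenchyme sum as a covariate raised the median SE of the members from 0.25 to 0.91 and that of all genes from 0.34 to 1.64. Its slope was set by differences between libraries of the same group. Calls lost or kept and signs turned with it therefore do not test the part of mesenchyme in a difference between groups. No member was then called between the libraries labelled E12 hindstomach and forestomach or intestine, between hindstomach and intestine at E14, forestomach and intestine at E16, in forestomach or hindstomach from E14 to E16, between E14 hindstomach and the libraries labelled E12 hindstomach, or in the changes of the forestomach differences (0 each, where 0.029% to 1.93% of all genes were called). Called were 1 between forestomach and intestine at E12, 3 at E14, 1 between hindstomach and intestine at E16, 2 in intestine from E14 to E16 (Cdkn1c and Dlk1), 4 at E18, and 1 in knockout libraries labelled E10 and 5 in those labelled E13. Signs turned for H19 in forestomach against the libraries labelled E12 hindstomach (-0.55), Plagl1 in those libraries (-0.43) and forestomach at E16 (-0.23) against intestine, Peg3 in forestomach (4.93) and hindstomach (3.95) and Mest in hindstomach (-1.68) from E14 to E16, and in the changes of organ differences for Igf2r (0.53), Peg3 (2.74) and Plagl1 (-1.46); the cause was not tested. In the change of the hindstomach difference from intestine Dlk1, Meg3 and Mest were still called, Peg3 was lost (1.02) and Cdkn1c was gained (-1.44).

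Leaving out 1 library at a time gave 1 to 4 calls between E12 forestomach and the libraries labelled hindstomach, 0 to 2 between hindstomach and intestine at E14, 2 to 5 in the change of the difference between the stomach regions, 4 to 6 in the libraries labelled deleted at E15 and 0 to 2 in the adult. The lone library left in a group was assumed to vary like the other groups. Replicate numbers did not pair the libraries (correlation of deviations -0.038 to 0.097 in the embryo and -0.152 in the adult); with a replicate block the count of calls was the same in all 22 embryonic comparisons and 2 in the adult. A fit without the libraries labelled E12 hindstomach, E16 forestomach and deleted at E13, chosen after seeing the data, gave the same members in 11 of 12 comparisons and 7 in the libraries labelled deleted at E15. Depth limits members with 0 to 3 counts in a group to ratios with counting intervals or to bounds.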
